A study of Mus musculus with 4 samples.

Results

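Interferon-stimulated genes are the genes that cells switch on after interferons bind their receptors, and the module described here held 42 of them. It was given as a list of gene symbols, and all 42 were found once each among the 27998 genes listed in every library. Type I and type III interferons act through a complex that includes STAT2 and IRF9 and binds interferon-stimulated response elements (ISRE), whereas interferon gamma acts mainly at gamma-activated sites (GAS). The products sense viral nucleic acid, block entry, translation or release of viruses, and mark intracellular pathogens. In the liver, Kupffer cells are the resident macrophages of the sinusoids and meet microbial products that arrive from the gut.

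The libraries hold RNA of CD45+ leukocytes isolated with magnetic beads from livers of adult wild-type C57BL/6 mice. Molecules were counted as unique molecular identifiers (UMIs) in droplets that each tag 1 cell. In 2 exercise libraries the mice ran on a motorized treadmill at 12.5 m/min for 60 min a day on 5 days a week for 4 weeks, and in 2 sedentary libraries they stood on a treadmill that did not move, on the same schedule. Serum alanine aminotransferase (ALT), a marker of liver injury, was labelled 26 U/L and 59 U/L for exercise replicates 1 and 2, and 33 U/L and 56 U/L for sedentary replicates 1 and 2. A library may be 1 animal or a pool, on which the labels are silent, so p-values measure only the spread between these libraries. No allele, transgene or drug was labelled in either group.

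The exercise libraries held 10050976 and 14849778 UMIs and the sedentary libraries 10662091 and 11826183 UMIs, and 14560 of 15383 barcodes were kept as cells, with a median of 2717 and 2850 UMIs per cell in exercise and 2028 and 2381 in sedentary libraries. Cells were grouped by clustering into 19 classes, of which 12 held at least 20 cells in every library. A class is called like a cell type because its name rests on marker genes alone. Kupffer-like cells, 2 clusters, numbered 1168 and 1667 in exercise and 1231 and 1254 in sedentary libraries. Clec4f, Folr2 and Timd4 were among the leading genes of the larger, with 3020 cells, a median of 3806.5 UMIs and 5.8% mitochondrial UMIs. The smaller, with Hmox1 among its leading genes, had 2300 cells, a median of 1730 UMIs and 10.29% mitochondrial UMIs. Kupffer markers lay a mean log2 fold of 2.03 above other cells in the larger and 1.14 in the smaller. The CD45 selection was not complete, since liver sinusoidal endothelial (LSEC)-like and stellate-like cells were among the classes. A barcode that also occurs in another library belonged to 44 and 67 kept exercise cells and to 67 and 58 kept sedentary cells, and leaving these cells out changed no call of a member.

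Promoters of 6 members are printed. They were picked as members that hold the core of the ISRE, with 1, Irf7, as a member without it. They therefore do not show how common the core is among the members. Windows of 300 bases, 250 before the gene start and 50 after it, came from RefSeq on GRCm38.p6 and were found for 33 of the 42 members. The ISRE core was searched as TTTC, any 2 bases and TTTC, on both strands, so that it reads GAAA, any 2 bases and GAAA on the other strand, and overlapping matches were allowed. Capitals mark the ISRE cores, and each window is given 5′ to 3′ on the strand of its gene.
Isg15: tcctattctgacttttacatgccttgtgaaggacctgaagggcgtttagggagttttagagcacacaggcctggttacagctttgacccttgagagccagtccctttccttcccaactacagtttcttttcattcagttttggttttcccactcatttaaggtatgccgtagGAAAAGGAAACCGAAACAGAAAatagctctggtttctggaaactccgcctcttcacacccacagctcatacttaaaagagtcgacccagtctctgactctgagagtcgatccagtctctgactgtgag
Ifit1: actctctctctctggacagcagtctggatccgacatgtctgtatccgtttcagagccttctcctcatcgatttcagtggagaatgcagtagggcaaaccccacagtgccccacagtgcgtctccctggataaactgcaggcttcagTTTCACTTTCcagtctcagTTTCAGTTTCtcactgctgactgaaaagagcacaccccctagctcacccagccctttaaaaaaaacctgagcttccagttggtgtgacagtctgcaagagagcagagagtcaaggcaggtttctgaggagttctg
Rsad2: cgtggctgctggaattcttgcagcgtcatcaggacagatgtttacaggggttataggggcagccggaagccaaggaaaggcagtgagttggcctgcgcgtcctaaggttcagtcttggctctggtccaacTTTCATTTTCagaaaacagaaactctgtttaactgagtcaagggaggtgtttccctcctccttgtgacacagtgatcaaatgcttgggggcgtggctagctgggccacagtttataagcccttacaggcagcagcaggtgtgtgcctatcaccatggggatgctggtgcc
Gbp2: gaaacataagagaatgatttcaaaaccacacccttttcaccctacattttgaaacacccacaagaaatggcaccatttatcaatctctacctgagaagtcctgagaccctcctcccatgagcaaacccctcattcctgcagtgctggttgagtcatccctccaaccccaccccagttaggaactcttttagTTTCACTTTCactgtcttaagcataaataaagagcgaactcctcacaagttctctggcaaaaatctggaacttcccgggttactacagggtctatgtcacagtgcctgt
Gbp7: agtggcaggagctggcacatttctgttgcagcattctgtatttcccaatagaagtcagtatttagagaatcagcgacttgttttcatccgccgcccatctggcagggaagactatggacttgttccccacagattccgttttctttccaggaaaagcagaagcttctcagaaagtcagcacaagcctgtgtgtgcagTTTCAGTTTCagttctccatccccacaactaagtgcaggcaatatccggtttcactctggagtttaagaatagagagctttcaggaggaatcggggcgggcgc
Irf7: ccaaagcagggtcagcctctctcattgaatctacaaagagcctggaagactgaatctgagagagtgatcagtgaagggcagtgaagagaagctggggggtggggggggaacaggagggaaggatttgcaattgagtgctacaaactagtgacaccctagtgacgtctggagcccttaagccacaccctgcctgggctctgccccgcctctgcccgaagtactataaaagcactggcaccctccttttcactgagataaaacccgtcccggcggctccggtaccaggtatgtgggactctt
The windows lie at chr4:156200769-156201068 on the minus strand for Isg15, chr19:34640639-34640938 on the plus strand for Ifit1 and chr12:26456403-26456702 on the minus strand for Rsad2. Those of Gbp2 and Gbp7 lie at chr3:142620413-142620712 and chr3:142530086-142530385 on the plus strand, and that of Irf7 at chr7:141266375-141266674 on the minus strand. Isg15 had 3 overlapping cores, which begin 78, 72 and 66 bases before the gene start, and Ifit1 had 2 cores, 104 and 85 bases before it. Rsad2, Gbp2 and Gbp7 had 1 core each, 120, 59 and 53 bases before the start. Several members are neighbours in the genome (GRCm38): Ifit2, Ifit3 and Ifit1 lie on chromosome 19 from 34550694 to 34650009, Gbp7, Gbp3 and Gbp2 on chromosome 3 from 142530342 to 142638008, and Rsad2 and Cmpk2 on chromosome 12 from 26442746 to 26479837. The Irf7 window held no match, which says only that these letters are not in this window.

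Of the 33 members with a window, 18 held the ISRE core (54.5%), against 1079 of 27025 genes with a window (3.99%). The GAS core, TTC, any 3 bases and GAA, which reads the same on both strands, was in 7 of 33 members (21.2%), against 2582 of 27025 genes (9.55%). Of the 33 members, 13 held the ISRE core only, 2 the GAS core only, 5 both and 13 neither. By role, the ISRE core was in 5 of 6 interferon-inducible GTPases and 2 of 3 IFIT genes. RNA sensors and oligoadenylate family genes had it in 3 of 5, and other antiviral effectors in 4 of 10. It was in 1 of 2 genes of the ISG15 system, 1 of 3 transcription factors and 2 of 4 of the PYHIN and nuclear body group. That group, named for Ifi203, Ifi204 and Sp100, also holds Trim30a, Parp14 and Lgals3bp. The shares are descriptions of these windows and were not tested.

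At baseline, among the named classes, the members stood highest in classical monocyte-like cells and next in Kupffer-like cells. They stood lowest in lymphocyte-like and conventional type 1 dendritic (cDC1)-like cells. Levels are CPM, the UMIs of a gene in the summed class scaled to the same total in each library, and differences between classes are given as values, with no test, because the classes were defined from the same cells. The summed level of the 42 members was 10450 ± 1177 CPM in exercise and 9680 ± 369 CPM in sedentary classical monocyte-like cells (SD, n = 2 libraries each), and every library of this class lay above every library of Kupffer-like cells. Kupffer-like cells had 7894 ± 1689 CPM in exercise and 7547 ± 1055 CPM in sedentary libraries.

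Below them the ranges of neighbouring classes overlapped, so their order is not resolved by these libraries. It ran in the sedentary libraries through cycling Kupffer-like (6705 CPM), plasmacytoid dendritic (pDC)-like (6239 CPM), other macrophage-like (6109 CPM), LSEC-like (6063 CPM) and conventional type 2 dendritic (cDC2)-like cells (4640 CPM). T-like (2828 CPM) and B-like cells (2402 CPM) each stood apart from the neighbours on both sides. NK or ILC-like (2179 CPM) and cDC1-like cells (1791 CPM) overlapped with each other. A cluster left unnamed by hand, since it held hepatocyte beside Kupffer transcripts, had 9440 ± 1396 CPM in exercise and 8641 ± 884 CPM in sedentary libraries (n = 2 each). Both of its means lay above those of Kupffer-like cells, and it is not part of the ranking. Kupffer and hepatocyte markers each lay a mean log2 fold of 1.16 above other cells in it. The smaller Kupffer-like cluster was close to it, at 1.14 for Kupffer and 0.84 for hepatocyte markers, so leaving only the former unnamed was a choice.

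This order rested in part on 6 members, Bst2, Ifitm3, Ifi27l2a, Lgals3bp, Slfn2 and Sp100. Without them classical monocyte-like cells had 3336 CPM in exercise and 2905 CPM in sedentary libraries, and Kupffer-like cells 2767 CPM and 2769 CPM, with ranges that overlapped. The cDC2-like level without them was 1551 CPM in exercise and 1321 CPM in sedentary libraries, and it overlapped with NK or ILC-like cells. Among classes too small to test, neutrophil-like cells had 16758 and 6780 CPM in exercise and 4067 and 5628 CPM in sedentary libraries, from 183 and 385 against 233 and 539 member UMIs in 7 and 33 against 44 and 65 cells.

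**Figure D1:**
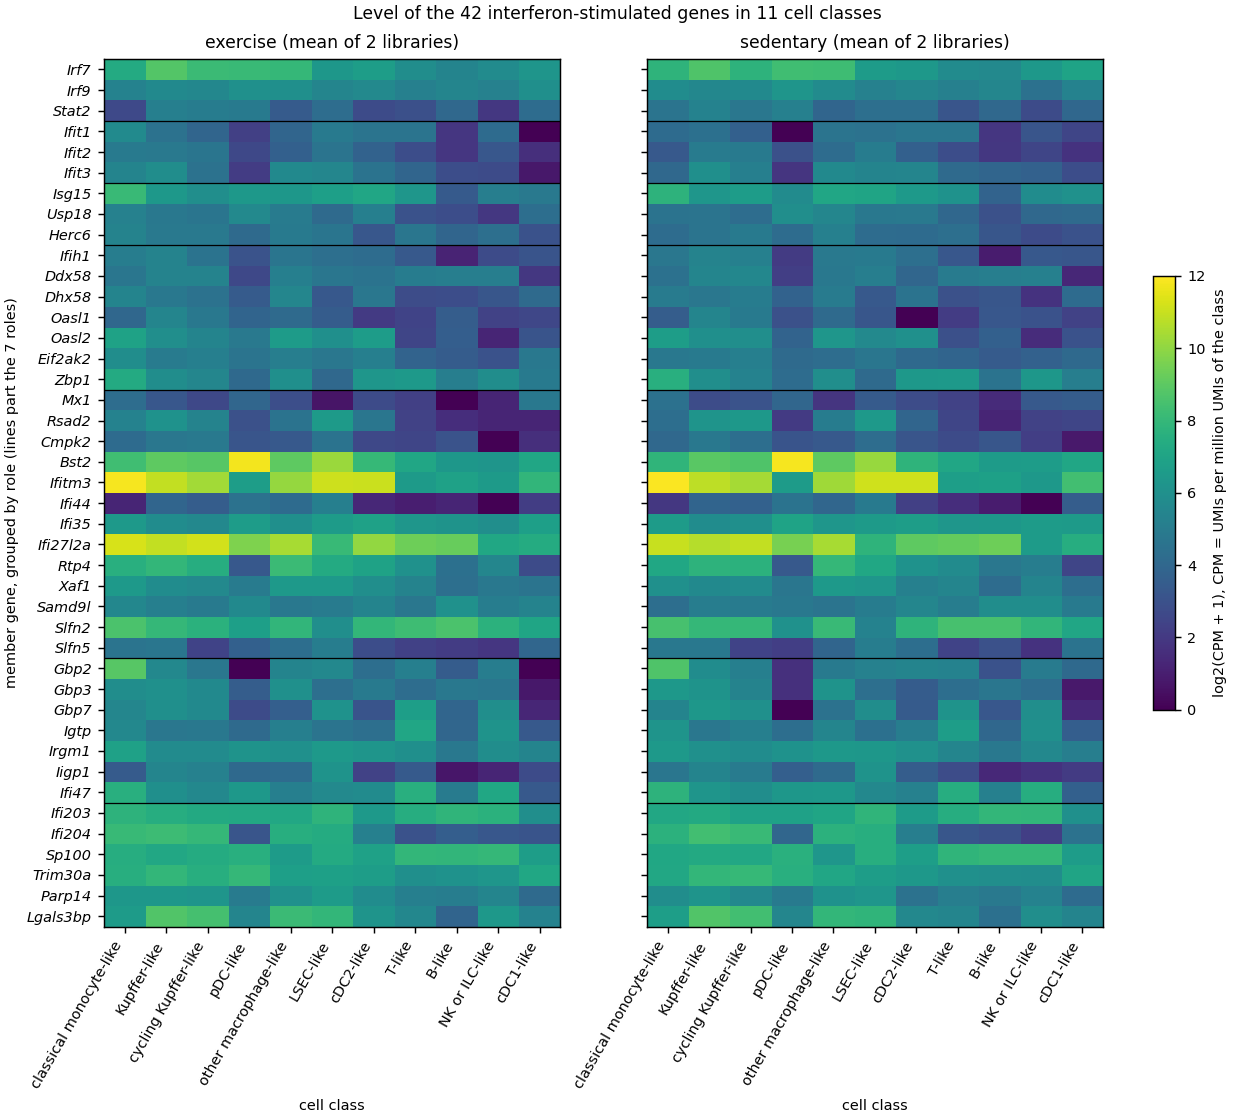
Each square is the level of 1 member (rows, grouped by role) in 1 of 11 named classes (columns, ordered by the summed sedentary level), as log2(CPM + 1) of the mean of the 2 exercise libraries on the left and the 2 sedentary libraries on the right. Bst2 is brightest in pDC-like cells, Ifitm3 and Gbp2 in classical monocyte-like cells, and the IFIT genes are dark in pDC-like, B-like and cDC1-like cells.

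Single members marked out different classes, and 12 of the 42 were highest in the same named class in all 4 libraries. In Kupffer-like cells these were 4 genes, Oasl1, Irf7, Lgals3bp and Ifi204. Irf7, the transcription factor that amplifies type I interferon production, had 437 CPM in exercise and 419 CPM in sedentary Kupffer-like cells, beside 283 CPM and 314 CPM in pDC-like cells, the next class. Oasl1, an oligoadenylate synthetase-like protein, had 43.3 CPM and 42.6 CPM, beside 26.8 CPM and 30.1 CPM in cycling Kupffer-like cells. Lgals3bp, a secreted glycoprotein that binds galectin 3, had 426 CPM in exercise and 427 CPM in sedentary Kupffer-like cells, and Ifi204, a DNA-binding PYHIN protein, had 302 CPM and 329 CPM. For these genes the Kupffer-like level was from 1.18 to 1.42 times the next class in the sedentary libraries.

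Classical monocyte-like cells were highest for 3 members, Gbp2, Zbp1 and Ifitm3. Gbp2, a guanylate-binding protein that coats vacuoles of intracellular pathogens, had 773 and 173 CPM in exercise and 298 and 520 CPM in sedentary classical monocyte-like cells. Its sedentary mean there was 7.31 times that of Kupffer-like cells, the next class, yet the exercise libraries alone differed by more than the groups did. Zbp1, a sensor of Z-form nucleic acid, had 150 and 167 CPM in exercise and 139 and 234 CPM in sedentary classical monocyte-like cells. Ifitm3, which blocks the fusion of entering viruses, had 3068 and 4261 CPM in exercise and 4483 and 3342 CPM in sedentary libraries of this class. The groups overlapped for all 3 genes.

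The pDC-like class was highest for Bst2 and Usp18. Bst2, or tetherin, which holds budding virus at the cell surface and is a known surface marker of mouse pDCs, had 3498 and 3506 CPM in exercise and 3829 and 3514 CPM in sedentary pDC-like cells, 3.23 times the next class in the sedentary libraries, and it was itself 1 of the markers that named the class. Ifit1 was at or near 0 in the same cells, with 3 and 1 UMIs in exercise and 0 and 0 in sedentary libraries. LSEC-like cells were highest for Iigp1, an immunity-related GTPase, with 60.6 and 80.1 CPM in exercise and 64.0 and 76.2 CPM in sedentary libraries, and for Parp14. T-like cells were highest for Igtp, a GTPase of the same family, with 134 and 139 CPM in exercise and 91.9 and 112 CPM in sedentary libraries. Parp14 had means of 96.1 CPM in exercise and 78.8 CPM in sedentary LSEC-like cells, beside 81.4 CPM and 73.9 CPM in Kupffer-like cells, the next class. The LSEC-like class included a cluster of 64 cells with markers of both types. Kupffer markers lay a mean log2 fold of 0.53 above other cells in it and endothelial markers 2.49. In B-like cells Rsad2 had 0 and 3 UMIs in exercise and 1 and 2 UMIs in sedentary libraries.

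Exercise against sedentary changed no member past the test in Kupffer-like cells. In edgeR's quasi-likelihood test with Benjamini-Hochberg adjustment over 9803 genes, 39 genes passed at 0.05 in this class (0.398%), 1 higher and 38 lower, and 0 of the 42 members were among them. DESeq2 called 0 members too, with 0 at an unadjusted p under 0.05. At an unadjusted p under 0.05 edgeR had 1 member, Gbp7, and the smallest adjusted p among the members was 0.638. The median log2 change of the members was 0.03, against 0.00 over all tested genes, and 25 of 42 were positive. This median had no stable sign: it was 0.20 and -0.22 without exercise replicates 1 and 2, and -0.10 and 0.24 without sedentary replicates 1 and 2.

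Both exercise libraries lay above both sedentary ones for 2 of 42 members in Kupffer-like cells (18.3% of all tested genes did so), and below them for 3 of 42 (18.1% of all tested genes). The 2 were Irf9 and Ifi203, and the 3 were Gbp2, Gbp7 and Ifi47. These shares of the members lie under those of all tested genes.

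The transcription factors are the switch of the pathway. Irf7 had 332 and 543 CPM in exercise and 366 and 473 CPM in sedentary Kupffer-like cells, so exercise replicate 2 was highest and exercise replicate 1 lowest, and the log2 change was 0.08 (SE 0.23, adjusted p = 0.972, edgeR). Irf9, a DNA-binding partner of STAT2, had 51.8 and 50.3 CPM in exercise and 48.0 and 44.8 CPM in sedentary libraries. The 2 groups did not overlap for Irf9, but the log2 change of 0.16 (SE 0.12) had an adjusted p of 0.900 in edgeR's test. Stat2 had 30.2 and 39.4 CPM in exercise and 35.2 and 41.6 CPM in sedentary libraries, with overlapping groups and a log2 change of -0.11 (SE 0.18).

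The IFIT genes, whose products bind viral RNA that lacks the marks of host mRNA, split by library and not by group. Ifit1 had 17.97 and 25.9 CPM in exercise and 13.2 and 27.2 CPM in sedentary Kupffer-like cells. Ifit2 had 11.7 and 43.1 CPM in exercise and 21.4 and 40.4 CPM in sedentary libraries, the widest gap of the 42 members between the exercise replicates, at 1.88 on the log2 scale. Ifit3 had 46.3 and 71.5 CPM in exercise and 48.4 and 74.3 CPM in sedentary libraries. In each of the 3 genes replicate 2 of either group stood above replicate 1 of both groups. Their log2 changes with exercise were 0.12 (SE 0.33), -0.11 (SE 0.50) and -0.04 (SE 0.26).

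The same order held in the ISG15 system. Isg15, a ubiquitin-like modifier, had 65.4 and 99.1 CPM in exercise and 66.2 and 89.4 CPM in sedentary Kupffer-like cells, a log2 change of 0.10 (SE 0.23). Usp18, which removes ISG15 from proteins and damps the type I receptor, had 23.7 and 30.3 CPM in exercise and 19.2 and 27.7 CPM in sedentary libraries, a log2 change of 0.22 (SE 0.22). Herc6, the ligase that attaches ISG15 in the mouse, had 26.3 and 28.7 CPM in exercise and 19.5 and 27.0 CPM in sedentary libraries, a log2 change of 0.25 (SE 0.19, adjusted p = 0.903, edgeR). All 3 changes were positive, none passed the test, and the groups overlapped.

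Among the antiviral effectors Mx1, Rsad2, Bst2, Ifitm3, Ifi27l2a and Xaf1 were followed by library. Mx1, a GTPase, had 5.73 and 11.6 CPM in exercise and 5.34 and 6.44 CPM in sedentary Kupffer-like cells, from 22 and 66 against 17 and 26 UMIs. Its log2 change of 0.62 (SE 0.38) was the largest of the 42 and turned to -0.053 without exercise replicate 2. Rsad2, or viperin, which makes a chain-ending nucleotide, had 53.4 and 83.8 CPM in exercise and 54.0 and 92.8 CPM in sedentary libraries. Groups overlapped in both genes.

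Bst2 had 402 and 639 CPM in exercise and 435 and 531 CPM in sedentary Kupffer-like cells. Ifitm3 had 1701 and 2065 CPM in exercise and 1603 and 2023 CPM in sedentary libraries. Ifi27l2a, a small interferon-induced membrane protein, had 1398 and 2395 CPM in exercise and 1443 and 1852 CPM in sedentary libraries. In all 3 genes both libraries numbered 2 exceeded both numbered 1, and the log2 changes with exercise were 0.13 (SE 0.22), 0.07 (SE 0.16) and 0.22 (SE 0.24). Xaf1, a pro-apoptotic partner of XIAP, had 50.8 and 63.0 CPM in exercise and 47.4 and 53.5 CPM in sedentary libraries, again with overlapping groups (log2 change 0.20, SE 0.16). The other 7 effectors, Cmpk2, Ifi44, Ifi35, Rtp4, Samd9l, Slfn2 and Slfn5, had log2 changes from -0.09 to 0.18, and none passed the test.

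The interferon-inducible GTPases leaned the other way, with 5 of 7 changes negative and a median of -0.19, and none passed the test. Gbp7 had 63.0 and 60.2 CPM in exercise and 76.3 and 84.2 CPM in sedentary Kupffer-like cells, a log2 change of -0.37 (SE 0.12, unadjusted p = 0.0161 and adjusted p = 0.638, edgeR). Ifi47 had 63.8 and 58.8 CPM in exercise and 67.5 and 84.4 CPM in sedentary libraries, a log2 change of -0.30 (SE 0.15). Gbp2 had 44.8 and 51.7 CPM in exercise and 57.1 and 54.7 CPM in sedentary libraries, a log2 change of -0.19 (SE 0.13). Both exercise libraries lay below both sedentary ones in these 3 genes.

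Irgm1, which helps clear vacuolar pathogens, had 53.9 and 55.8 CPM in exercise and 53.7 and 73.5 CPM in sedentary Kupffer-like cells, and its log2 change of -0.20 (SE 0.17) became 0.087 without sedentary replicate 2. Gbp3 had 73.9 and 55.3 CPM in exercise and 73.2 and 67.6 CPM in sedentary libraries, a log2 change of -0.11 (SE 0.15) that became 0.074 without exercise replicate 2. Iigp1 had 43.2 and 41.9 CPM in exercise and 38.6 and 43.6 CPM in sedentary libraries. The groups overlapped for all 3, and for Igtp.

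The sensors of viral RNA, Ifih1 (MDA5), Ddx58 (RIG-I) and Dhx58 (LGP2), and Oasl1, Oasl2, Eif2ak2 (PKR) and Zbp1 had log2 changes from -0.06 to 0.10, with 4 of 7 positive. In the mixed PYHIN and nuclear body group, Ifi203 had 177 and 179 CPM in exercise and 151 and 158 CPM in sedentary Kupffer-like cells. Its log2 change was 0.22 (SE 0.11, adjusted p = 0.862, edgeR), and the groups did not overlap. Ifi204, Sp100 of the PML nuclear bodies, Trim30a, Parp14, an ADP-ribosyltransferase, and Lgals3bp changed by -0.10 to 0.15 on the log2 scale. Reads of Ifi203 and Ifi204, of Ifit3, of Trim30a and of the Gbp genes can be split with near-identical relatives, so the levels of these members are less certain. The same holds for members that overlap other annotated genes, which are Irf7, Irf9, Oasl1, Usp18, Herc6, Dhx58, Eif2ak2, Rtp4, Ifi35, Slfn2, Slfn5, Gbp2, Gbp7, Igtp, Ifi47, Ifi203, Sp100, Trim30a and Parp14.

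**Figure D2:**
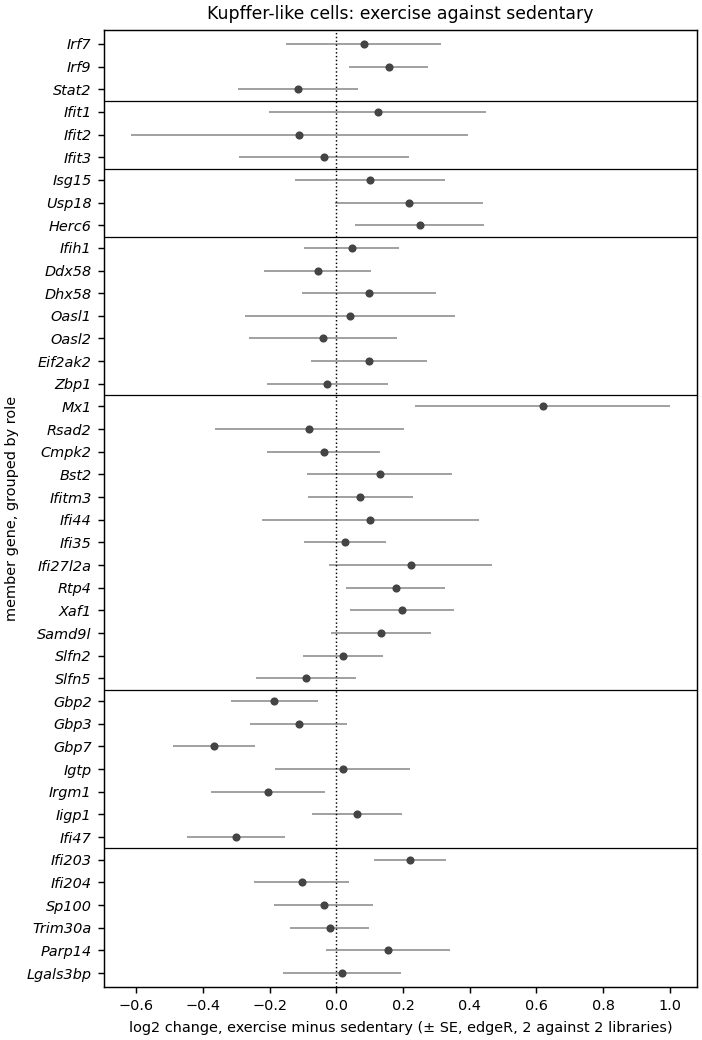
Points are the log2 change of each member between exercise and sedentary Kupffer-like cells and bars are ± 1 SE from edgeR (2 against 2 libraries), with genes grouped by role. Mx1 lies farthest right at 0.62 and Gbp7 farthest left at -0.37, and none of the 42 passed the test.

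The spread within each group had a common direction. In Kupffer-like cells the members of exercise replicate 2 lay a median of 0.23 log2 CPM above the mean of the other 3 libraries, the highest such value of the 4 libraries, and those of sedentary replicate 2 lay 0.17 above. Exercise replicate 1 and sedentary replicate 1 both lay at -0.23. The same medians over all 9803 tested genes were between 0.00 and 0.01. Exercise replicate 2 was the highest of the 4 libraries for 23 of 42 members (54.8%), against 24.9% of all tested genes, and sedentary replicate 2 for 15 of 42 (35.7%), against 23.7% of all tested genes.

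More than 1 library therefore stood apart. Both libraries numbered 2, 1 of each group, lay above both numbered 1 for 30 of 42 members in Kupffer-like cells (71.4%), against 18.3% of all tested genes. The reverse order held for 3 of 42, Gbp3, Samd9l and Slfn5, against 17.7% of all tested genes. The median difference was 0.35 log2 CPM between exercise replicates 2 and 1 and 0.31 between sedentary replicates 2 and 1, while the exercise library of a number lay 0.01 (number 1) and 0.04 (number 2) above its sedentary counterpart. The shared number is a label, and the labels do not say that it marks a day, cage or batch. This ordering was noticed in the values and carries no test.

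By role, all 3 IFIT genes, all 3 genes of the ISG15 system and 11 of 13 other antiviral effectors had the order. So did 5 of 7 RNA sensors and oligoadenylate family genes and 2 of 3 transcription factors. In the mixed PYHIN and nuclear body group 5 of 6 did, namely Ifi204, Sp100, Trim30a, Parp14 and Lgals3bp. Only 1 of the 7 interferon-inducible GTPases did, Irgm1. The median GTPase difference was -0.02 between exercise replicates 2 and 1 and 0.24 between sedentary replicates 2 and 1. Of the members with a promoter window, the ISRE core was in 10 of 22 that had the order and in 8 of 11 that did not.

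**Figure D3:**
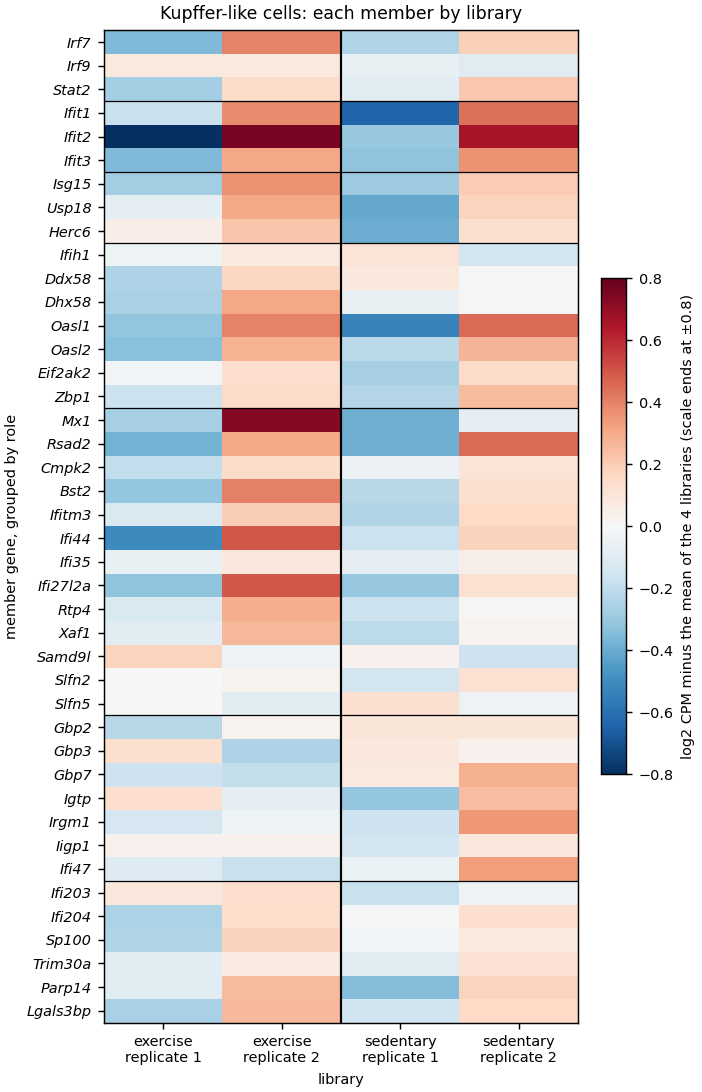
Each row is a member and each column a library of Kupffer-like cells, coloured by log2 CPM minus the mean of the 4 libraries (red above, blue below, the scale ends at ±0.8). Both columns of replicate 2 are mostly red and both columns of replicate 1 mostly blue, 30 of 42 rows have both replicates 2 above both replicates 1, and of the GTPase rows Irgm1 has that order.

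The summed level carried the same order, with 6700 and 9089 CPM in exercise and 6801 and 8293 CPM in sedentary Kupffer-like cells. It was present in cells with at most 10% mitochondrial UMIs (26 of 42 members, against 12.97% of the genes with at least 40 UMIs there, in CPM without TMM scaling, where the class as a whole had 29 and 12.5%). It held for 28 of 42 members in the larger Kupffer-like cluster alone (against 15.1%) and for 20 of 42 in the smaller (against 15.7%). In cells with no UMI of 9 hepatocyte markers it held for 18 of 42, against 12.3% of the genes with at least 40 UMIs there, in 747 and 1174 exercise and 136 and 240 sedentary cells. With every cell thinned to 1000 UMIs it held for 25 of 42, against 16.9% of all tested genes.

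Other measures of the Kupffer-like cells moved with it. The 8 classical monocyte markers summed to 354 and 545 CPM in exercise and 343 and 568 CPM in sedentary libraries, with none of the 8 at 0. The share of the class in its larger cluster was 50.9% and 64.2% in exercise and 43.6% and 65.2% in sedentary libraries, and the median cell had 2714 and 2910 UMIs in exercise against 2240 and 2818 UMIs in sedentary libraries. Serum ALT was also higher in both libraries numbered 2. The part of these measures in the member levels was not tested. Other measures were ordered by group and not by number, and those printed here are examples. The 12 Kupffer markers stood at 37838 and 37388 CPM in exercise and 32612 and 34712 CPM in sedentary libraries. Mitochondrial genes took 6.64% and 6.16% of UMIs in exercise and 8.44% and 7.22% in sedentary libraries. The 9 hepatocyte markers stood at 158 and 118 CPM in exercise and 1375 and 678 CPM in sedentary libraries, and the 6 erythroid markers at 102 and 312 CPM against 2159 and 916 CPM.

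Member UMIs per Kupffer-like cell were higher in both libraries numbered 2 at the median and in the upper tail. A shift within cells was not tested apart from a change in the mix of the 2 Kupffer-like clusters. With 1000 UMIs drawn from each Kupffer-like cell, the members had a median of 6 and 8 UMIs per cell in exercise and 6 and 7 in sedentary libraries, and the tenth percentile was 2 and 4 UMIs against 3 and 3. Cells with at least 15 member UMIs made up 1.28% and 7.74% in exercise and 2.25% and 4.94% in sedentary libraries. The top 5% of cells held between 10.6% and 12.2% of the member UMIs in each library. Unthinned medians were 16 and 25 UMIs in exercise and 13 and 21 in sedentary libraries, and 33 cells of sedentary replicate 1 had too few UMIs to be thinned. NK or ILC-like cells had a mean of 2.01 and 2.15 member UMIs per 1000 in exercise and 2.24 and 2.19 in sedentary libraries, beside 6.20 and 8.597 against 6.43 and 7.76 in Kupffer-like cells. In classical monocyte-like cells 28.6% and 29.7% of exercise and 15.7% and 24.4% of sedentary cells had at least 15.

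**Figure D4:**
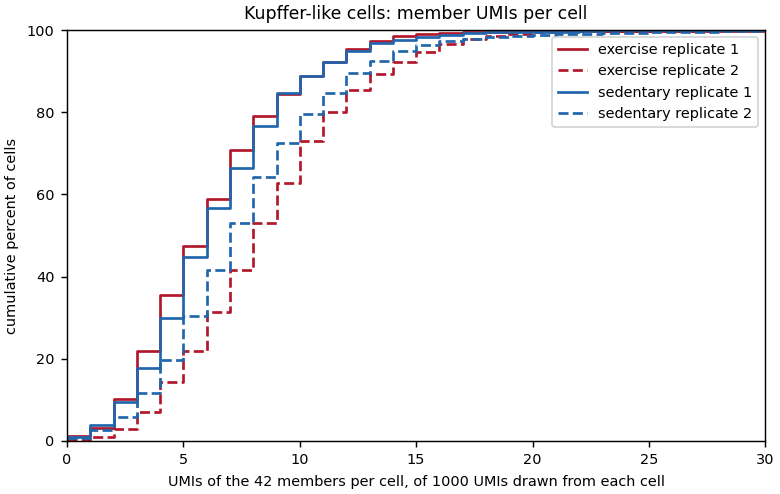
Lines give the cumulative percent of Kupffer-like cells (vertical axis) with up to a given number of member UMIs among 1000 UMIs drawn from each cell (horizontal axis), 1 line per library. The dashed lines of both replicates 2 run to the right of the solid lines of both replicates 1 over most of the range, with medians of 8 and 7 against 6 and 6 UMIs.

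The library order was found in most other classes for a smaller share of the members than in Kupffer-like cells. Both libraries numbered 2 lay above both numbered 1 for 11 of 25 tested members in the unnamed cluster (44.0%, against 16.5% of all genes tested there). In LSEC-like cells this held for 16 of 37 members (43.2%, against 18.7%) and in cycling Kupffer-like cells for 12 of 28 (42.9%, against 17.6%). B-like cells had it for 11 of 26 (42.3%, against 17.9%) and pDC-like cells for 9 of 22 (40.9%, against 18.1%). Classical monocyte-like cells had it for 10 of 27 (37.0%, against 15.5%) and cDC2-like cells for 6 of 21 (28.6%, against 17.2%). The shares lay closer to those of all genes in T-like cells, with 9 of 36 (25.0%, against 16.9%), other macrophage-like cells, with 5 of 22 (22.7%, against 17.1%), and cDC1-like cells, with 5 of 24 (20.8%, against 17.5%). In NK or ILC-like cells 2 of 19 had it (10.5%, against 16.5%). Whether these shares differ between classes was not tested, and the cells of a class in each library come from the same suspension. The shares also rest on unlike depth and unlike sets of members. Kupffer-like cells numbered 1168 to 1667 per library, against 30 to 64 in cDC2-like and 563 to 645 in T-like cells. All 42 members were tested in Kupffer-like cells and 19 to 37 in the other classes. With each cell thinned to 1000 UMIs the Kupffer-like share was 59.5%. The part of depth in the smaller shares was not tested.

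Exercise replicate 2, whose median was the highest in Kupffer-like cells, did not stand above the rest in every class. Its median over the members, relative to the mean of the other 3 libraries, was 0.34 log2 CPM in cDC2-like, 0.29 in the unnamed cluster, 0.26 in classical monocyte-like and 0.25 in both pDC-like and cycling Kupffer-like cells. It was 0.13 in LSEC-like and 0.11 in both other macrophage-like and B-like cells. In T-like, NK or ILC-like and cDC1-like cells it was 0.04, -0.00 and -0.09, while the medians over all tested genes were between 0.00 and 0.02 in all 12 classes. It was the highest of the 4 libraries for 12 of 22 members in pDC-like cells (against 21.5% of all tested genes) and 11 of 21 in cDC2-like cells (against 21.8%). The same count was 4 of 26 in B-like cells (against 25.6%) and 3 of 19 in NK or ILC-like cells (against 23.7%).

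**Figure D5:**
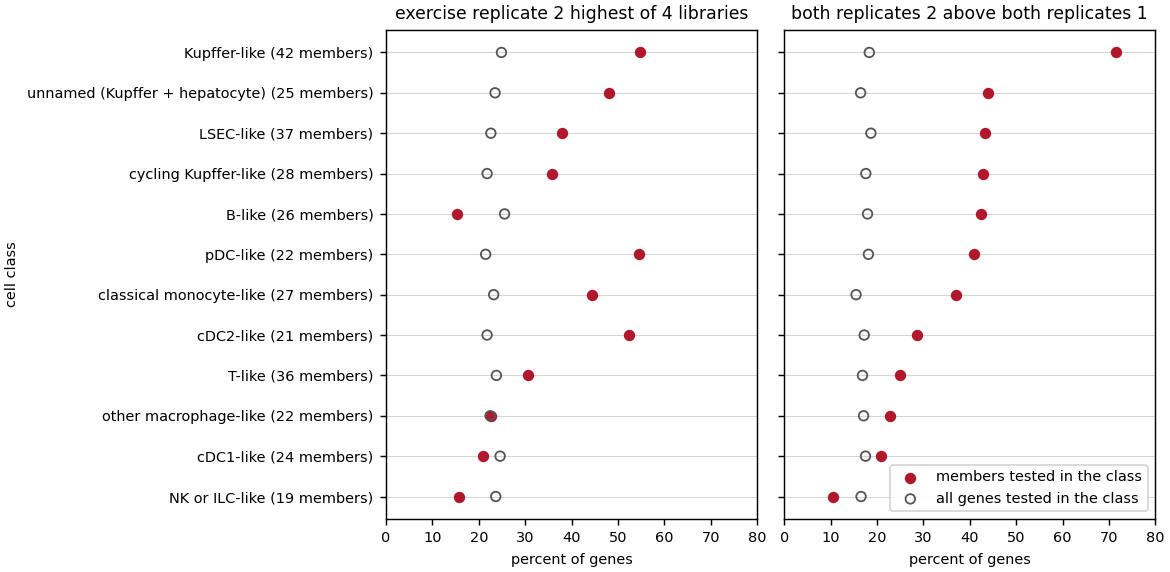
Filled points give the percent of the tested members, and open points the percent of all tested genes, for which exercise replicate 2 was highest of the 4 libraries (left) and for which both replicates 2 lay above both replicates 1 (right), in 12 classes. Kupffer-like cells stand at 54.8% and 71.4%, and NK or ILC-like cells at 15.8% and 10.5%.

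In the other 11 classes no member passed the exercise test either. Of 51828 gene tests in these classes 69 passed (0.133%), and of 287 member tests 0 passed, with 27 at an unadjusted p under 0.05 (9.41%, beside 5.37% of all gene tests) and a smallest adjusted p of 0.255 in edgeR's test. These tests share the same libraries and are not independent, and the difference between the shares was not tested. DESeq2 called 0 members in these classes. That smallest value belonged to Ifi27l2a in cDC2-like cells, which had 757 and 1341 CPM in exercise and 535 and 488 CPM in sedentary libraries, from 147 and 438 against 164 and 113 UMIs. Both exercise libraries were above both sedentary ones, as for 16.8% of all genes tested in this class, and the log2 change was 1.07 (SE 0.22). Without exercise replicate 1, sedentary replicate 1 or sedentary replicate 2 this gene was called, at log2 changes of 1.42, 1.12 and 1.05, while without exercise replicate 2 the change was 0.58 (adjusted p = 0.625, edgeR). Each of these fits sets 1 library against 2 and assumes that the lone library varies like the others, so they are not comparable with the test of 2 against 2.

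The median log2 change of the tested members was 0.36 in cDC2-like cells, with 17 of 21 positive, and 0.31 in classical monocyte-like cells, with 18 of 27 positive. In the remaining 9 classes it was between -0.12 and 0.19, and over all tested genes between -0.01 and 0.01 in every class. The cDC2-like median was 0.16 without exercise replicate 2 and 0.18 without sedentary replicate 1, and the classical monocyte-like median was 0.05 without sedentary replicate 1, 0.67 without sedentary replicate 2 and 0.21 without exercise replicate 2. These classes held 30 to 82 cells per library.

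Whether a member changed differently in Kupffer-like cells and in another class was tested directly, as the class by group interaction in edgeR with the library as a nested term. Against cDC2-like cells 7 of 3117 genes passed (0.225%), and 1 of 21 members, Ifi27l2a, was among them. Its exercise change was lower in Kupffer-like than in cDC2-like cells by a log2 difference of -0.82 (SE 0.19, adjusted p = 0.0359). This adjustment covers the 3117 genes of that fit and not the 11 interaction fits together. Against the other 10 classes 26 of 46831 gene tests passed (0.0555%), and no member did. The call was lost in 8 of 16 alternatives, among them DESeq2 (adjusted p = 1.00) and the fits without sedentary replicate 1 (0.406) or sedentary replicate 2 (0.915). In all, 33 of 287 member tests (11.5%) had an unadjusted p under 0.05, beside 6.00% of all gene tests in these fits. The fits reuse the same libraries and the same Kupffer-like sums, so the tests are not independent. The difference between the shares was not tested.

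The rest of the pathway in Kupffer-like cells was described from a list of its parts. No ligand was abundant enough to test. Of the 9 ligand genes, Ifna1, Ifna2, Ifna4, Ifnb1, Ifnl2, Ifnl3 and Ifne had 0 UMIs in all classes together and Ifnk had 1. Ifng, the type II interferon, had 650 UMIs, of which 15 were in Kupffer-like cells, and stood highest in NK or ILC-like cells at 82.7 CPM over the 4 libraries.

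Of 16 receptor and signalling genes 15 were tested in Kupffer-like cells, 0 passed and the median log2 change was 0.00. Ifnar1, a chain of the type I receptor, had 40.6 and 29.9 CPM in exercise and 46.8 and 33.2 CPM in sedentary libraries, and Ifnar2, its other chain, 208 and 218 CPM against 186 and 190 CPM. Both libraries numbered 2 lay above both numbered 1 for 4 of these 15 genes, beside 18.3% of all tested genes.

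Of 11 upstream sensors and adaptors 10 were tested and of 7 negative regulators 6, and none passed. The smallest adjusted p of both lists was that of Socs3, an inhibitor of JAK signalling, at 3.39 and 3.34 CPM in exercise and 7.22 and 10.6 CPM in sedentary Kupffer-like cells, where the groups did not overlap and the log2 change was -1.41 (SE 0.34, adjusted p = 0.254, edgeR). The library order held for 5 of 10 sensors and adaptors and 1 of 6 negative regulators, beside 18.3% of all tested genes. Of 84 further interferon-stimulated genes outside the module 79 were listed once and 71 tested, 0 passed, 37 changes were positive and the median was 0.01. Both libraries numbered 2 lay above both numbered 1 for 32 of these 71, beside the same 18.3%.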

How the data were processed

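The authors deposited UMI counts per gene and barcode, which are raw. Cell Ranger, Seurat 3.1 and the build mm10 (GRCm38) are named in the submitters' processing notes, and a pre-mRNA genome in the series text, so intronic reads may be counted. The Cell Ranger version, the use of strand and the calling of cells are not given in the sources used here.

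Kept barcodes had at least 500 UMIs and 200 genes, with no more than 20% of UMIs from mitochondrial genes, and doublets were removed at 0.8% per 1000 cells by nearest-neighbour scores against 2 simulated doublets per cell. Counts scaled to 10000 per cell were log-transformed, and 2000 variable genes, 30 principal components and 20 neighbours gave 23 Leiden clusters at resolution 1.0, named by hand from marker lists. Hepatocyte and red cell genes were left out of the variable genes after a first clustering had split Kupffer-like cells by them, a choice made after seeing the data. Of the members, 8 were among the variable genes. Class sums of each library went into edgeR 4.0.16 on R 4.3.3, with filterByExpr, TMM scaling, the quasi-likelihood F-test without covariates and Benjamini-Hochberg adjustment over all genes tested. DESeq2 1.42.0 was an alternative. Log2 CPM had a prior count of 2. The edgeR fit of exercise against sedentary was tested on simulated counts with known changes, at Kupffer-like and cDC2-like levels, and the other steps were not. Python 3.11.15, scikit-learn 1.9.0 and leidenalg 0.10.2 were used.

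The members, lists and tests were chosen with earlier results of these data known. All 42 members are accounted for by role, and values by library in Kupffer-like cells are given for the 5 smallest p in each direction and for 14 members fixed by name. Per class, up to 4 members that were highest there in all libraries are named by their ratio to the next class. Socs3, Ifnar1, Ifnar2 and Ifng, and the library and class details beyond this, were chosen after their values were seen. Gene positions are those of GENCODE on GRCm38, matched by identifier. Counting error alone limits members with few UMIs, and the level of free RNA was not measured.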

Additional observations from a re-analysis of the deposited data

Results flagged for a closer look

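The exercise change of Ifi27l2a differed between Kupffer-like and cDC2-like cells in the test of the difference itself (log2 difference of -0.82, SE 0.19, adjusted p = 0.0359, class by group interaction in edgeR). The p-value was adjusted over the genes of this fit alone and not over the 11 interaction fits together. Its own change was 0.22 (SE 0.24) in Kupffer-like and 1.07 (SE 0.22) in cDC2-like cells, and neither passed the exercise test. The adjusted p in cDC2-like cells was 0.255 (edgeR), and the change there was 0.58 without exercise replicate 2. Both exercise libraries lay above both sedentary ones in the cDC2-like class, as for 16.8% of all genes tested there. This class held 30 and 56 exercise and 64 and 41 sedentary cells. The size stayed between -1.06 and -0.61 over the alternatives, but the call was lost in 8 of 16 of them.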

How the results depend on the processing

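The counts of members called higher and lower in Kupffer-like cells were 0 under all 21 alternatives fitted. The median log2 change, 0.03, moved under each by less than 0.30, the SD of the library medians within groups. That SD is far larger than the median change itself, so this is a wide limit. The sign of the median change was not stable, with a range of -0.22 to 0.24 when 1 library was left out. With the replicate block, under which same-numbered libraries form a pair, 0 members were called in Kupffer-like cells in either direction. The labels do not say that the numbers pair the libraries, and the correlation of same-numbered deviations was 0.196 in this class. In the other classes together the count of called members, 0, became 2 with the replicate block (Ifi27l2a in cDC2-like and Gbp7 in T-like cells), 1 with no filter on low counts (Ifi27l2a), and 1 to 2 when 1 library was left out, where Isg15 in cDC1-like cells (-1.76, without exercise replicate 1), Samd9l in pDC-like cells (1.97, without sedentary replicate 1) and Slfn2 in the unnamed cluster (0.94, without exercise replicate 2) joined Ifi27l2a, which was called in the other 3 of these fits but not without exercise replicate 2. Of 208 values of the 10 followed members in Kupffer-like cells under alternatives, 202 kept their sign and 6 reversed. With 1 library left out the log2 change of Mx1 ranged from -0.053 to 1.01, that of Irgm1 from -0.43 to 0.087 and that of Gbp3 from -0.30 to 0.074. In the smaller Kupffer-like cluster alone the log2 change was -0.077 for Irf9 and -0.026 for Xaf1, and in cells with no hepatocyte marker UMI it was -0.13 for Herc6. The cause was not tested.

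The interaction call of Ifi27l2a, 1 member, became 0 with DESeq2, with at least 10 UMIs in every library, without sedentary replicate 1 or 2, with doublets kept, with clustering without interferon genes, with variable genes centred per library, and with hepatocyte and red cell genes kept, at adjusted p from 0.0528 to 1.00. With 1 library left out the count ranged from 0 to 1. At resolution 0.5 there was no cDC2-like class, so that fit could not be made. These interaction alternatives, the single clusters and the hepatocyte choices were added after seeing the data. The share of members' promoters with the motif was 93.9% with 1 mismatch to the ISRE core, against 38.9% of all genes, and 21.2% with GAS in its place. The count of members outside the other 3 libraries in exercise replicate 2 in Kupffer-like cells was 27 (64.3%, beside 48.7% of all tested genes), 24 by library totals alone (57.1%, beside 48.0%) and 22 after thinning (52.4%, beside 48.4%, so near the share of all genes). Over all genes in Kupffer-like cells, 1 was called higher and 38 lower; these counts were 1 and 70 with DESeq2, 16 and 199 with no filter, 1 and 20 with at least 10 UMIs in every library, 18 and 159 with the replicate block, 0 and 20 with doublets kept, 5 and 20 in cells with no hepatocyte marker UMI, and 0 to 4 and 0 to 90 when 1 library was left out.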
